A study of Mus musculus with 9 samples.

Results

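Transcripts of 10 regulators of G-protein signalling, Rgs1, Rgs2, Rgs3, Rgs10, Rgs12, Rgs14, Rgs16, Rgs18, Rgs19 and Rgs20, were followed through BCR/ABLp185+ cell lines with and without Stat5a or Stat5b. The 10 genes were listed by name out of 50686 genes counted, and the list was chosen from their levels in these same libraries, across all 3 comparisons described here. Their own values are therefore given as a description without p-values. The lines are C57BL/6N mouse bone marrow cells transformed with BCR/ABLp185, the fusion oncogene that drives a form of acute lymphoblastic leukemia, and the control line carries the oncogene too. There was 1 line that was wt at both Stat5 genes, 1 Stat5a-/- line and 1 Stat5b-/- line, each with 3 technical replicates, which gives 9 mRNA libraries. A difference between groups is thus a difference between 3 cell lines, and error terms and p-values measure only the spread between technical libraries of a line. The titles and genotype labels were used for grouping, although the description field of the knockout libraries calls them wt.

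Receptors that couple to G proteins switch a G alpha subunit from its GDP form to its GTP form and release the G beta gamma pair. RGS proteins share a domain that speeds up GTP hydrolysis by G alpha subunits and so shortens the signal. In lymphocytes they are known for limiting responses to chemokines and lipid mediators. The family is divided by sequence into the R4 group (here Rgs1, Rgs2, Rgs3, Rgs16 and Rgs18), the R12 group (Rgs10, Rgs12 and Rgs14), the RZ group (Rgs19 and Rgs20) and the R7 group, of which no gene is among the 10.

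The libraries held between 11948136 and 19016396 counted reads, and 13852 genes passed the filter on low counts, among them all 10 RGS genes. No pair of libraries was alike within counting error (chi-square per degree of freedom 5.05 or more within a line). Stat5a had 12.4 ± 1.02 normalized CPM (SD, n = 3) in Stat5a-/- and 43.1 ± 6.35 in wt libraries, and Stat5b had 63.4 ± 7.72 in Stat5b-/- and 106 ± 1.96 in wt, so that each was lowest in the line labelled for it, with reads remaining. All 14 B-lineage markers were above 1 CPM in each line. The 16 T-cell markers were also above 1 CPM on average in each line and summed to 807 to 1085 CPM in wt, 1458 to 1680 in Stat5a-/- and 1854 to 2604 in Stat5b-/- libraries. Of 14 myeloid markers 11 to 13 were under 1 CPM in a line (sum 4.91 to 16 CPM). Of 9 megakaryocyte markers 7 or 8 were (sum 3.24 to 10.1 CPM), and Pf4, Ppbp and Gp1bb had no read. In these bulk libraries, fewer cells of a type and less RNA per cell cannot be told apart.

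Promoter sequence, as listed by RefSeq for GRCm38.p6, was found for 6 of the 10 genes (Rgs2, Rgs3, Rgs10, Rgs12, Rgs16 and Rgs19), with 10 start sites in all. The stretches printed here are the 100 bases before the deposited gene model for the outermost start, in the direction of transcription. They are shown because these genes differed in different ways between the lines, and because their promoters differ in CpG content. Capitals mark CpG dinucleotides. They lie at chr1:144004162-144004261 (Rgs2, minus strand), chr4:62559747-62559846 (Rgs3, plus strand), chr5:34949345-34949444 (Rgs12, plus strand), chr1:153740249-153740348 (Rgs16, plus strand) and chr2:181693978-181694077 (Rgs19, minus strand).
Rgs2: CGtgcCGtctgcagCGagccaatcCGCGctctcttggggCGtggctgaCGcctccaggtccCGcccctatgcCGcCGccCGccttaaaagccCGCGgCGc
Rgs3: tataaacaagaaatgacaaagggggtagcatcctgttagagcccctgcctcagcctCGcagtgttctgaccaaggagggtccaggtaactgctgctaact
Rgs12: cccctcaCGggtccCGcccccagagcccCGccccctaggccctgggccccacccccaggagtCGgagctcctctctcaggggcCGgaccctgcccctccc
Rgs16: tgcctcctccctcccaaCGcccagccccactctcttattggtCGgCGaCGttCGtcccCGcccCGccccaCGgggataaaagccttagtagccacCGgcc
Rgs19: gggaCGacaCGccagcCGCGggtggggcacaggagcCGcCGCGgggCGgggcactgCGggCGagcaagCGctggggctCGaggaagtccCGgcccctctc

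In the full 250 bases before these starts, Rgs2 had 30 CpG dinucleotides, Rgs19 20, Rgs16 17, Rgs12 14 and Rgs3 3, against a median of 6 over 32851 promoters of the table. The counts depend on the start chosen: at their other listed starts Rgs19 had 34 and 4, Rgs12 had 3 and Rgs3 had 7. The Rgs10 promoter had 27 and is not printed because it lies inside the deposited gene model. The same 250 bases were searched on both strands for the STAT core TTCNNNGAA and for GAAANNGAA, the core of the interferon-stimulated response element without its last letter. The first was in 7.02% and the second in 7.13% of all promoters, and neither was in any of the 10 member windows, which says only that these letters are not there.

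Summed over the 10 genes, RGS transcripts took 262 to 275 CPM in wt, 295 to 308 in Stat5a-/- and 289 to 315 in Stat5b-/- libraries. The wt range lay below that of both knockout lines, and the ranges of the knockout lines overlapped. Behind these similar sums the makeup differed. On the scale of CPM per kb of gene model, which allows genes to be compared, Rgs19 had the highest level in every line. It took 60.1% of the summed level in wt, 59.2% in Stat5a-/- and 37.9% in Stat5b-/-. Rgs10 took 10.9%, 12.4% and 25.7%, in the same order. Rgs2 took 8.33%, 7.35% and 12%, and Rgs18 took 13.6%, 11.4% and 11.5%. The stacked shares show how the Stat5b-/- line differs in its Rgs19 and Rgs10 portions.

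**Figure D1:**
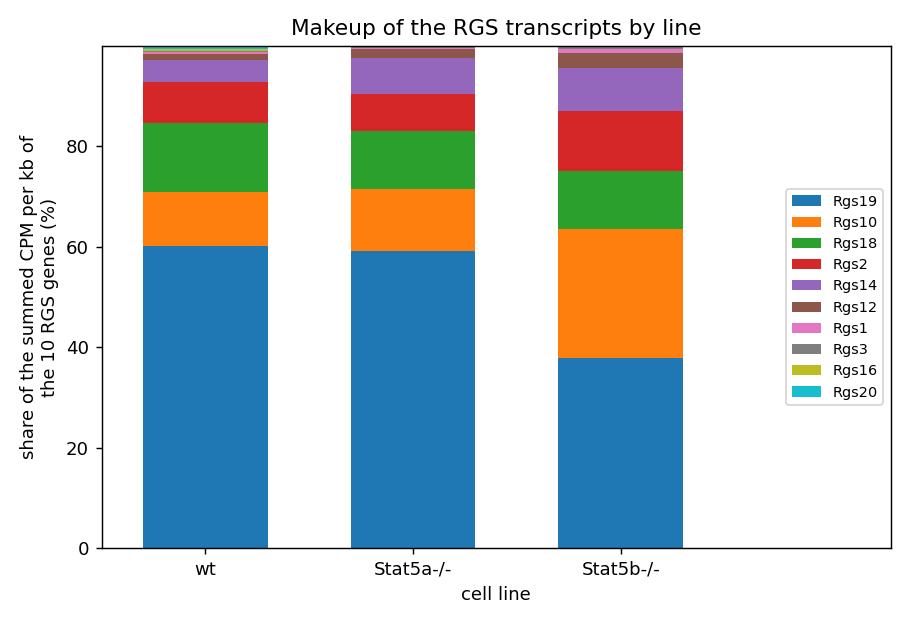
Stacked bars give the share (%) of each RGS gene in the summed mean CPM per kb of the 10 genes for the wt, Stat5a-/- and Stat5b-/- line. Rgs19 makes up 60.1%, 59.2% and 37.9% and Rgs10 10.9%, 12.4% and 25.7%, while Rgs1, Rgs3, Rgs16 and Rgs20 are thin bands.

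In wt, the order of levels per kb was Rgs19 (67.3 ± 3.69 CPM per kb, SD, n = 3), Rgs18 (15.2), Rgs10 (12.2), Rgs2 (9.33), Rgs14 (4.82), Rgs12 (1.35), Rgs20 (0.659), Rgs1 (0.513), Rgs16 (0.372) and Rgs3 (0.222). Libraries of neighbours in that order overlapped for Rgs18 and Rgs10, Rgs10 and Rgs2, Rgs20 and Rgs1, and Rgs1 and Rgs16. In Stat5a-/- the order was Rgs19 (73.9 ± 4.42), Rgs10 (15.5), Rgs18 (14.2), Rgs2 (9.18), Rgs14 (9.08), Rgs12 (2.13), Rgs3 (0.466), Rgs1 (0.244), Rgs16 (0.156) and Rgs20, with overlap along the run from Rgs10 to Rgs14 and between Rgs1 and Rgs16. In Stat5b-/- it was Rgs19 (45.0 ± 2.14), Rgs10 (30.5), Rgs2 (14.3), Rgs18 (13.7), Rgs14 (10.2), Rgs12 (3.61), Rgs1 (0.852), Rgs3 (0.461), Rgs16 (0.265) and Rgs20 with no read. Here Rgs2 overlapped Rgs18, and Rgs18 overlapped Rgs14.

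**Figure D2:**
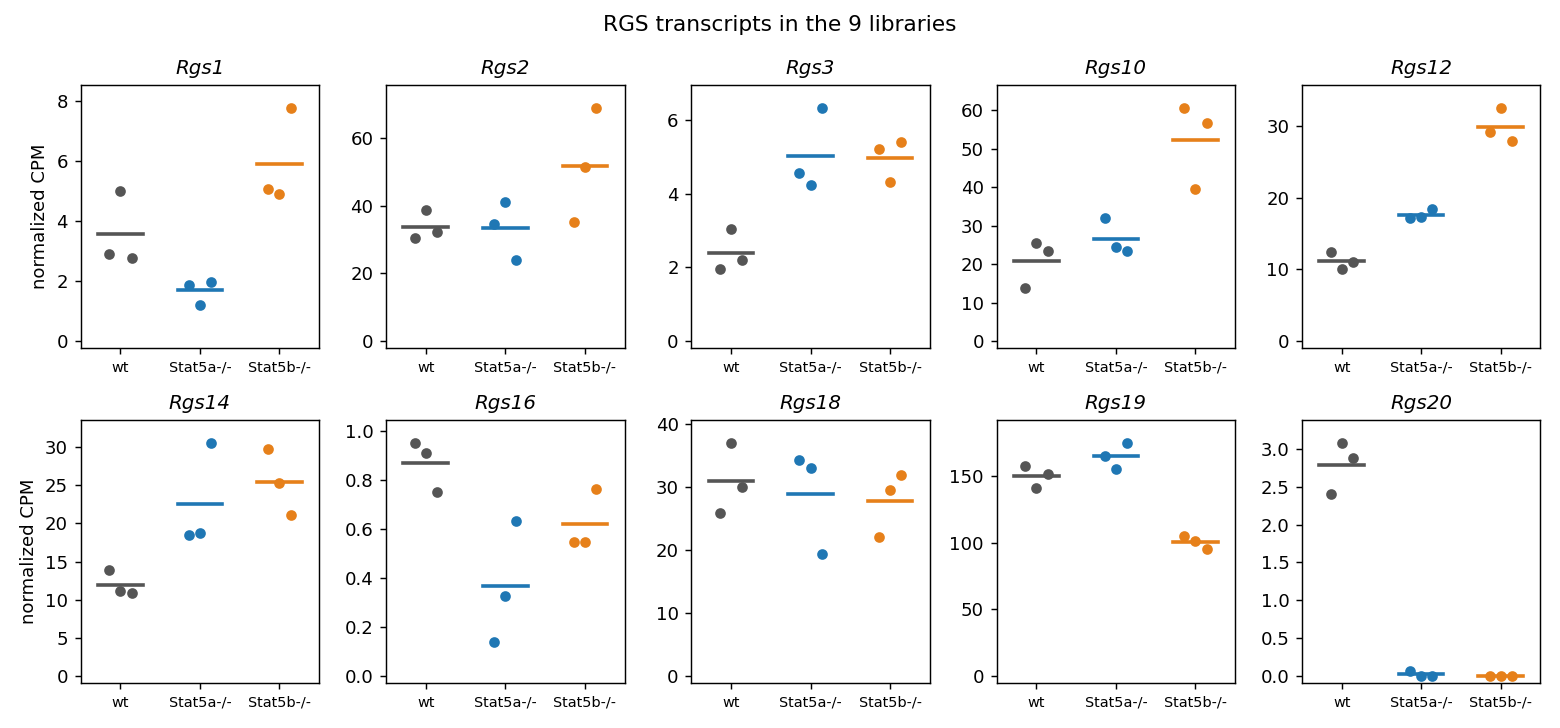
Each panel plots the normalized CPM of an RGS gene in the 3 libraries of the wt, Stat5a-/- and Stat5b-/- lines (points, each panel with its own scale) and the mean of the line (bar). Rgs20 is near 0 in both knockout lines, Rgs12 is in 3 steps with Stat5b-/- highest, Rgs19 is lowest in Stat5b-/-, and the libraries of the 3 lines overlap for Rgs18.

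Differences were measured against the limits of the study's methods, a fold change above 2 with an adjusted p below 0.05. In Stat5b-/- against wt, 4 of the 10 RGS genes were past both limits on the higher side (Rgs3, Rgs10, Rgs12 and Rgs14), where 10.6% of all tested genes were, and 1 on the lower side (Rgs20), where 8.44% were. By the adjusted p alone it was 8 of 10, beside 46.2% of all genes. In Stat5a-/- against wt, 1 was past both limits on the higher side (Rgs3), beside 7.75% of all genes, and 3 on the lower side (Rgs1, Rgs16 and Rgs20), beside 6.49%. The adjusted p alone gave 6 of 10, beside 36% of all genes. Between the knockout lines, Rgs1 alone was past both limits, higher in Stat5b-/- (4.81% of all genes were higher and 6.6% lower), and 5 were past the adjusted p alone, beside 33.9%. The libraries did not overlap for 6 RGS genes in Stat5b-/- against wt, for 6 in Stat5a-/- against wt and for 4 between the knockout lines, where 54.2%, 49.2% and 44.8% of all genes did not. Since the 10 genes were listed with these values known, the counts describe the list. They changed when the summed T-cell markers were added to the model: Rgs12 and Rgs20 were then past both limits in Stat5b-/- against wt, Rgs1, Rgs12, Rgs14 and Rgs20 in Stat5a-/- against wt, and Rgs12 in place of Rgs1 between the knockout lines. In that fit the calls over all tested genes also became fewer in Stat5b-/- against wt (4.37% higher and 4.22% lower), while they were 7.65% and 7.06% in Stat5a-/- against wt and 3.26% and 5.25% between the knockout lines. The median standard error over all genes in Stat5b-/- against wt was 0.46 in that fit and 0.16 without the covariate, so fewer calls there go with lower precision. The marker sums did not overlap between the lines, so the adjustment rests on the spread between technical libraries within a line. The median log2 fold change of the 10 genes was 0.66, 0.06 and 0.41 in the 3 comparisons, beside 0.02, 0.01 and 0.02 over all tested genes.

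**Figure D3:**
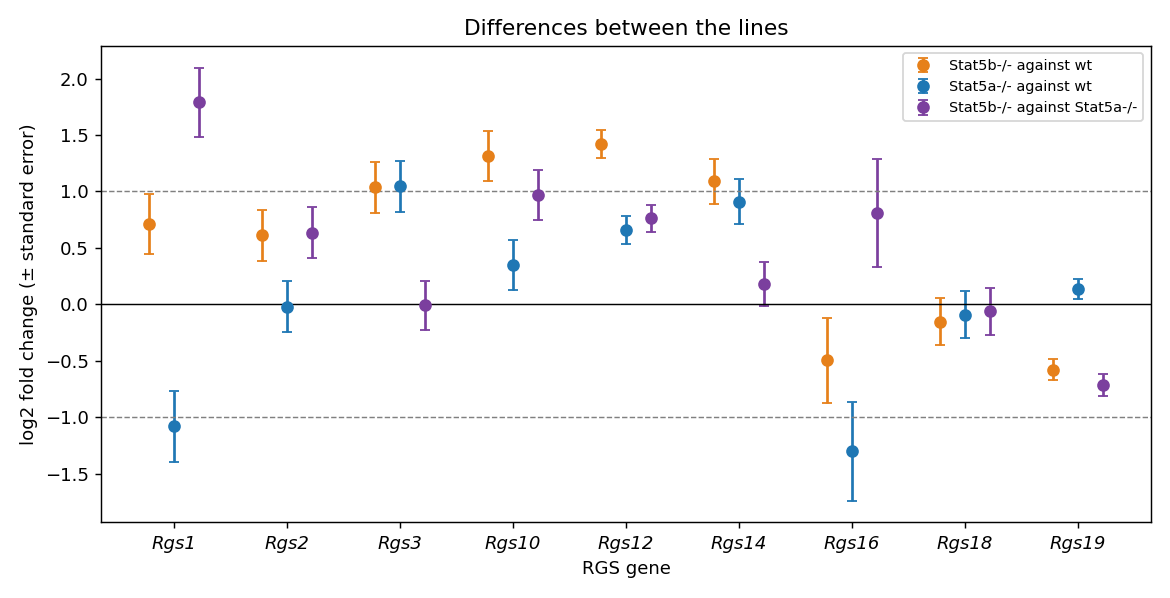
Points give the log2 fold change of 9 RGS genes in the 3 comparisons, with the standard error from the edgeR fit as bars and dashed lines at a fold change of 2. Rgs1 is below 0 in Stat5a-/- against wt (-1.08) and above 0 in Stat5b-/- against wt (0.71), and Rgs3 has nearly the same value in both (1.05 and 1.04). Rgs20 is left out because a fold against 0 to 1 read is a bound or a wide ratio.

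The RZ group held the highest RGS transcript and the one that differed most. Rgs19 (ENSMUSG00000002458.13, chromosome 2 from 181688419 to 181693977 of GRCm38) encodes GAIP, which acts on G alpha subunits of the Gi and Go kind. It had 157, 141 and 151 CPM in the wt libraries, 165, 155 and 175 in Stat5a-/- and 105, 101 and 95.2 in Stat5b-/-. The Stat5b-/- libraries lay below all others, and the other lines overlapped. The log2 fold change was -0.58 (SE 0.09) in Stat5b-/- against wt, 0.14 (SE 0.09) in Stat5a-/- against wt and -0.72 (SE 0.09) between the knockout lines, all under a fold change of 2.

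Rgs20 (ENSMUSG00000002459.17, chromosome 1 from 4909576 to 5070285) encodes a regulator known for its action on Gz, a subunit of the Gi family, and for its expression in brain. It had 38, 61 and 50 reads in wt, 1, 0 and 0 in Stat5a-/- and 0, 0 and 0 in Stat5b-/- libraries. The wt libraries stood apart, at 2.41 to 3.08 CPM. With 3 reads over the line as the floor for a count of 0, the level was at least 39.8-fold lower in Stat5b-/- than in wt. With its 1 read, Stat5a-/- was lower by a ratio of 106 (95% exact interval 18.8 to 4220, for counting error only). No fold is given between the knockout lines. Exons of Rgs20 share 127 bases, 3.00% of its model, with exons of Atp6v1h on the opposite strand, which had 361 to 1046 reads in every library.

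In the R12 group, all 3 genes were higher in Stat5b-/- than in wt. Rgs12 (ENSMUSG00000029101.14, chromosome 5 from 34949445 to 35039644) and Rgs14 (ENSMUSG00000052087.13, chromosome 13 from 55369732 to 55384687) encode large proteins that, besides the RGS domain, bind Ras-type GTPases and hold inactive Gi subunits through a GoLoco motif. Rgs12 had 12.4, 10.0 and 11 CPM in wt, 17.1, 17.3 and 18.4 in Stat5a-/- and 29.1, 32.5 and 27.9 in Stat5b-/- libraries. The 3 lines did not overlap and formed 3 steps. The log2 fold change was 1.42 (SE 0.12) in Stat5b-/- and 0.66 (SE 0.13) in Stat5a-/- against wt, and 0.76 (SE 0.12) between the knockout lines. Rgs14 had 13.9, 11.2 and 10.9 CPM in wt, 18.5, 18.7 and 30.6 in Stat5a-/- and 29.8, 25.4 and 21.2 in Stat5b-/-. Both knockout lines lay above wt and overlapped each other. Its log2 fold change was 1.09 (SE 0.20) in Stat5b-/- and 0.91 (SE 0.20) in Stat5a-/- against wt. Without Stat5b-/- replicate 1, Rgs14 missed the limits in Stat5b-/- against wt, and without wt replicate 1 or Stat5a-/- replicate 1 or 2 it was past them in Stat5a-/- against wt. With the T-cell marker sum in the model its value in Stat5b-/- against wt was 1.74 (SE 0.62), which was not past both limits.

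Rgs10 (ENSMUSG00000030844.11, chromosome 7 from 128373621 to 128418758) encodes a small protein with little besides the RGS domain, abundant in immune cells. Its libraries had 13.8, 25.5 and 23.4 CPM in wt, 32, 24.3 and 23.4 in Stat5a-/- and 60.5, 39.5 and 56.5 in Stat5b-/-. The Stat5b-/- libraries lay above all others, and wt and Stat5a-/- overlapped. Its fitted log2 fold change was 1.31 (SE 0.22) in Stat5b-/- and 0.35 (SE 0.22) in Stat5a-/- against wt, and 0.97 (SE 0.22) between the knockout lines. The Stat5b-/- libraries, which were highest in Rgs10, also had the highest T-cell marker sums. The Stat5a-/- libraries had higher sums than wt and overlapped it in Rgs10. In replicate order, sums were 807, 1085 and 1005 CPM in wt, 1589, 1680 and 1458 in Stat5a-/- and 2604, 1854 and 2462 in Stat5b-/-. The median log2 fold change of the 16 markers was 1.15 in Stat5b-/- and 0.446 in Stat5a-/- against wt, and 0.772 between the knockout lines. Per 100 CPM of the 16 summed markers, Rgs10 had 1.71 to 2.35 CPM in wt, 1.45 to 2.02 in Stat5a-/- and 2.13 to 2.32 in Stat5b-/-. Without Cd2, the marker with the highest level in Stat5a-/- (276 CPM, against 55.1 in wt), the ranges were 1.84 to 2.48, 1.75 to 2.41 and 2.24 to 2.41 and overlapped in all lines. The log2 marker sum was also added to the model, which was decided after the values were seen. The log2 fold change of Rgs10 in Stat5b-/- against wt was then -0.56 (SE 0.43) and that of Rgs12 was 2.04 (SE 0.30). The sums did not overlap between the lines, so the slope in this fit comes from technical libraries within lines. These values are extrapolated and cannot separate line from marker sum. For Rgs12 the ranges per 100 CPM of markers overlapped too (0.926 to 1.54 CPM in wt, 1.03 to 1.26 in Stat5a-/- and 1.12 to 1.75 in Stat5b-/-). Rgs19 had 13 to 19.5 CPM per 100 CPM of markers in wt, 9.22 to 12 in Stat5a-/- and 3.87 to 5.46 in Stat5b-/-, and without Cd2 it had 13.7 to 20.9, 11.1 to 14.9 and 4.04 to 5.73, where wt and Stat5a-/- overlapped and Stat5b-/- lay below. Rgs18 had 2.97 to 3.40, 1.33 to 2.16 and 0.845 to 1.59, with wt above both. Rgs3 (0.218 to 0.279, 0.252 to 0.433 and 0.200 to 0.232) and Rgs14 (1.03 to 1.72, 1.11 to 2.10 and 0.860 to 1.37) overlapped wt in both knockout lines on this scale. The part of other cells in these levels was not tested.

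**Figure D4:**
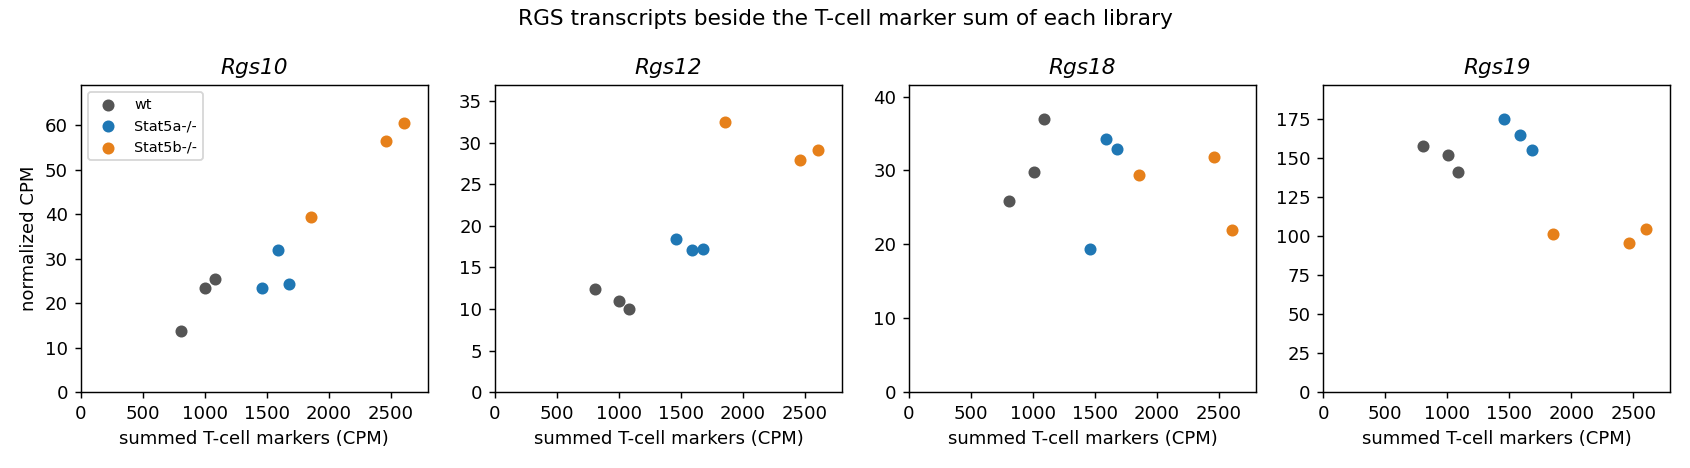
Each panel plots the normalized CPM of an RGS gene against the summed CPM of 16 T-cell markers for the 9 libraries, coloured by line. Rgs10 is highest in the Stat5b-/- libraries (39.5 to 60.5 CPM), which have the highest sums, and overlaps between wt and Stat5a-/-. Rgs12 sits in 3 separate steps, Rgs18 has overlapping ranges in the 3 lines, and Rgs19 is lower in the Stat5b-/- libraries.

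The R4 group holds small regulators that act on Gi and Gq. Rgs1 (ENSMUSG00000026358.13, chromosome 1 from 144242296 to 144249242), which restrains chemokine responses of B cells, had 2.92, 5.0 and 2.77 CPM in wt, 1.89, 1.22 and 1.98 in Stat5a-/- and 5.07, 4.92 and 7.77 in Stat5b-/- libraries. These rest on 15 to 102 reads in a library. The Stat5a-/- libraries lay below all others, while 1 wt library (5.0 CPM) fell among those of Stat5b-/-. The log2 fold change was -1.08 (SE 0.32) in Stat5a-/- and 0.71 (SE 0.26) in Stat5b-/- against wt, and 1.79 (SE 0.31) between the knockout lines, the largest difference between them among the 9 genes with a fold. Without wt replicate 2 or without Stat5a-/- replicate 2, Rgs1 was no longer past both limits in Stat5a-/- against wt, nor was it with a GC offset, and without wt replicate 2 it was past them in Stat5b-/- against wt. With the T-cell marker sum as a covariate, the value in Stat5b-/- against wt was -0.31 (SE 0.82).

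Rgs2 (ENSMUSG00000026360.9, chromosome 1 from 143999338 to 144004161), known for its preference for Gq, had 30.5, 38.7 and 32.3 CPM in wt, 34.6, 41.2 and 24.1 in Stat5a-/- and 35.3, 51.3 and 68.8 in Stat5b-/-. The lines overlapped, and the Stat5b-/- libraries were spread more widely than all others together. On the log2 scale the fold change was 0.61 (SE 0.22) in Stat5b-/- and -0.02 (SE 0.23) in Stat5a-/- against wt. Rgs18 (ENSMUSG00000026357.3, chromosome 1 from 144752683 to 144775435), known from megakaryocytes and platelets, had 25.8, 36.9 and 29.9 CPM in wt, 34.3, 33.0 and 19.4 in Stat5a-/- and 22, 29.5 and 31.8 in Stat5b-/-. Its lines overlapped in every comparison, with log2 fold changes of -0.16, -0.09 and -0.06 (SE 0.21 each), the smallest span of line means among the 10 genes. Of the 9 megakaryocyte markers, Itgb3 had 29 to 101 reads in every library (mean 1.96, 3.96 and 6.14 CPM in wt, Stat5a-/- and Stat5b-/-), Itga2b had 3 to 9, Gp9 had 6 to 13 in wt, 0 in Stat5a-/- and 10 to 32 in Stat5b-/-, and Pf4, Ppbp and Gp1bb were at 0. Their part in the Rgs18 level was not tested.

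Rgs3 (ENSMUSG00000059810.18, chromosome 4 from 62559847 to 62704001), whose longer forms carry further domains, had 1.97, 3.03 and 2.19 CPM in wt, 4.55, 4.23 and 6.31 in Stat5a-/- and 5.21, 4.31 and 5.41 in Stat5b-/-, from 31 to 76 reads in a library. Both knockout lines lay above wt and overlapped each other. This gave log2 fold changes of 1.04 (SE 0.22) in Stat5b-/- and 1.05 (SE 0.23) in Stat5a-/- against wt, close to the fold limit, and -0.01 (SE 0.22) between them. Without wt replicate 1 or 3, Rgs3 was no longer past both limits in either comparison, nor was it without Stat5b-/- replicate 1 or 3 in Stat5b-/- against wt or without Stat5a-/- replicate 3 in Stat5a-/- against wt. With the T-cell marker sum in the model it missed the limits in both comparisons (0.37, SE 0.68, and 0.67, SE 0.42), and with a GC offset in Stat5a-/- against wt. Rgs16 (ENSMUSG00000026475.7, chromosome 1 from 153740349 to 153745468), a regulator of lymphocyte migration, was the lowest of the group in reads, with 15, 18 and 13 in wt, 2, 4 and 7 in Stat5a-/- and 8, 8 and 10 in Stat5b-/- libraries. In normalized CPM, Stat5a-/- (0.140 to 0.631) lay below wt (0.751 to 0.952), and Stat5b-/- (0.547 to 0.762) overlapped both. The log2 fold change was -1.30 (SE 0.44) in Stat5a-/- and -0.50 (SE 0.38) in Stat5b-/- against wt. Rgs16 was not past both limits in Stat5a-/- against wt by DESeq2, with the replicate block or with the T-cell marker sum in the model, was not among the genes with a mean of at least 10 counts, and lost its call when wt replicate 1, 2 or 3 or Stat5a-/- replicate 1 or 2 was left out.

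Of the 10 genes, 5 lie on chromosome 1, and Rgs2, Rgs1 and Rgs18 follow each other there with gaps of 238 kb and 503 kb and no other tested gene in the gaps. Their patterns were unlike one another, as given above. Outside the 10, 17 genes were the nearest tested neighbours on either side or overlapped a member. Of these, 4 were past both limits in each comparison, 2 higher and 2 lower in Stat5b-/- against wt, 3 higher and 1 lower in Stat5a-/- against wt, and 1 higher and 3 lower between the knockout lines. Of all tested genes, 10.6% were higher and 8.44% lower in the first comparison, 7.75% and 6.49% in the second, and 4.81% and 6.6% in the third. Hgfac, which encodes a protease that activates hepatocyte growth factor and lies 1.86 kb from Rgs12, had a mean of 0.0591 CPM in wt, 15.0 in Stat5a-/- and 3.74 in Stat5b-/-. Its log2 fold change was 7.84 in Stat5a-/- (SE 0.35, adjusted p = 1.92e-09, edgeR) and 5.85 in Stat5b-/- (SE 0.42, adjusted p = 1.53e-07), while Rgs12 was higher in Stat5b-/- than in Stat5a-/-. The wt mean of Hgfac is near 0, so the size of its folds against wt is uncertain. Col27a1, a collagen gene 510 kb from Rgs3, fell from 28.2 CPM in wt to 0.915 in Stat5a-/- and 1.12 in Stat5b-/- (log2 fold change -4.95 and -4.63, adjusted p = 1.15e-09 and 1.32e-09, edgeR). Gm6916, 32.8 kb from Rgs10, was at 0.112, 3.04 and 0.188 CPM in wt, Stat5a-/- and Stat5b-/- (Stat5a-/- against wt 4.65, adjusted p = 4.45e-07, edgeR). Slc34a1, a phosphate transporter gene 15.0 kb from Rgs14, was at 0.151, 0.436 and 1.30 CPM (Stat5b-/- against wt 3.03, adjusted p = 3.27e-04, edgeR). The wt means of Gm6916 and Slc34a1 are low as well, which leaves the size of their folds uncertain.

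For the 3 RGS genes with the widest span of line means, the tested genes outside the family with the most similar log2 CPM over the 9 libraries were sought. These points share libraries and fall into 3 lines, so the coefficients only describe likeness. Among those most like Rgs20 were Eda (r = 0.9985) and Ssr1 (0.9978). Eda had a mean of 3.35 CPM in wt, 0.0233 in Stat5a-/- and 0 in Stat5b-/-, whereas Ssr1 had 330, 224 and 218 CPM. Rgs12 was most like Galnt10 (0.9958), Sigirr (0.9938) and Mxd3 (0.9927), whose means had the same order of lines (Galnt10 9.55, 20.04 and 46.2 CPM). Rgs1 was most like Rab3gap1 (0.9791), Gm5898 (0.9604) and Ankrd50 (0.9570).

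The rest of the RGS family was mostly silent. Of the 11 other genes from Rgs4 to Rgs22, 8 were under the filter, with at most 5 reads over all 9 libraries. Rgs8, an R4 gene known from brain that lies 40.0 kb from Rgs16, averaged 20.7 ± 2.37 CPM in the wt line (SD, n = 3), with 83.4 ± 9.72 in the Stat5a-/- and 34.3 ± 1.47 in the Stat5b-/- line. It rose in Stat5a-/- against wt (log2 fold change 2.01, SE 0.12, adjusted p = 3.34e-08, edgeR) and was lower in Stat5b-/- than in Stat5a-/- (-1.28, adjusted p = 3.16e-06). Rgs7bp, which encodes the membrane anchor of the R7 regulators, had 299 to 412 reads in wt, 13 to 22 in Stat5a-/- and 4 to 9 in Stat5b-/- libraries. It fell in both, with a log2 fold change of -3.92 (adjusted p = 3.90e-09, edgeR) and -5.57 (adjusted p = 8.20e-10). Rgs11, an R7 gene, was low, at 15 to 37 reads in a library, with a log2 fold change of 1.06 in Stat5b-/- (adjusted p = 0.00426, edgeR) and 0.91 in Stat5a-/- (adjusted p = 0.0163, under the fold limit).

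Partners of RGS proteins, other RGS family genes and other genes with an RGS domain are together called partner genes here. They were counted in 7 lists of 173 genes, of which 109 were tested. In Stat5b-/- against wt, 32 were past both limits on the higher and 11 on the lower side (29.4% and 10.1%, beside the 10.6% and 8.44% of all genes), with a median log2 fold change of 0.62. In Stat5a-/- against wt, 24 and 10 were (22% and 9.17%, beside 7.75% and 6.49%, median 0.28), and between the knockout lines 8 were higher and 14 lower (7.34% and 12.8%, beside 4.81% and 6.6%, median 0.20). Receptors made up most of the higher genes in Stat5b-/- against wt, with 21 of 44 higher and 4 lower (median 0.99). In Stat5a-/- against wt 14 receptors were higher and 3 lower (median 0.36), and between the knockout lines 4 were higher and 7 lower, with a median of 0.505. The T-cell marker sum moved the same way, and with it as a covariate 12 of the 109 were higher and 8 lower, beside 4.37% and 4.22% of all genes in the same fit. Without Stat5b-/- replicate 1, 20 were higher and 11 lower.

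**Figure D5:**
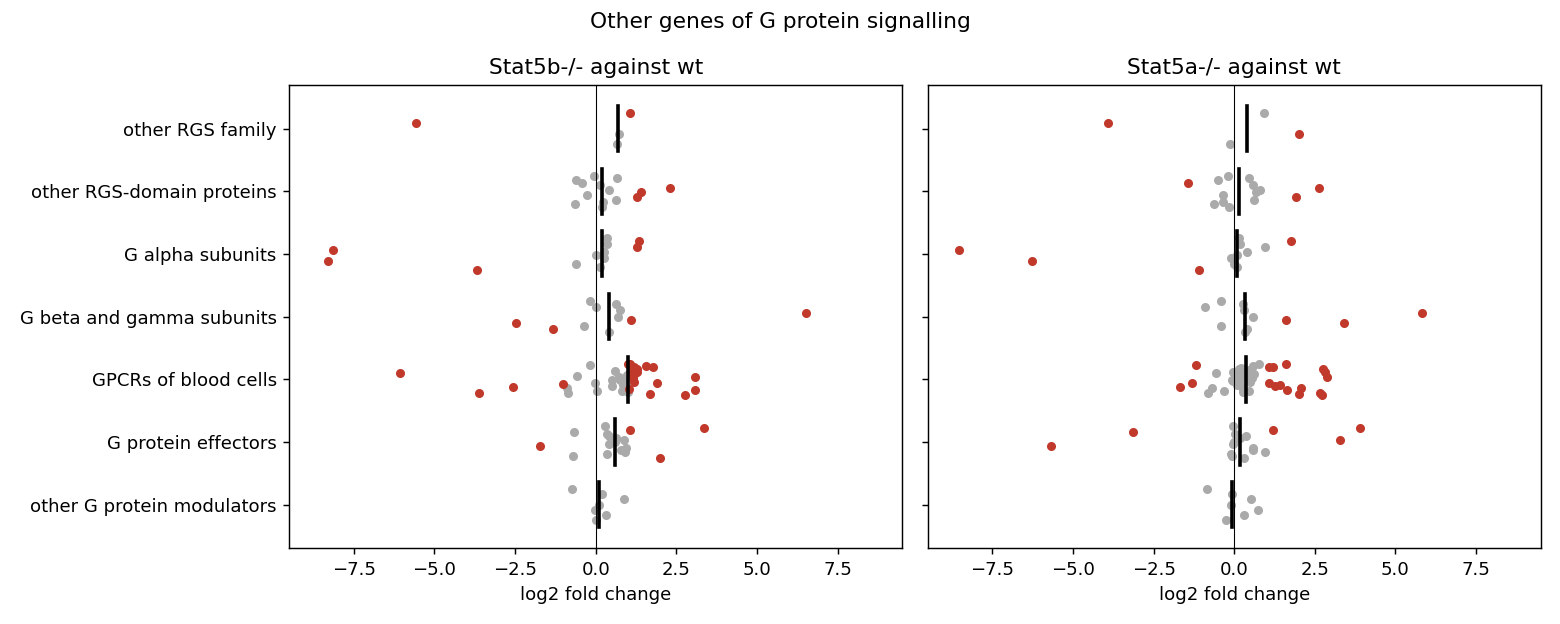
Each point is the log2 fold change of a tested gene of a list in Stat5b-/- against wt (left) and Stat5a-/- against wt (right), red where past both limits, with the median of the list as a black line. Receptors have a median of 0.99 on the left and 0.36 on the right, and individual G alpha and G gamma genes lie far out on both sides.

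Among G alpha subunits, the substrates of RGS proteins, 12 of 16 were tested, with 2 higher and 3 lower in Stat5b-/- against wt and 1 higher and 3 lower in Stat5a-/- against wt. Gnai2, a Gi subunit, had the highest level per kb (170 CPM per kb in wt, 222 in Stat5a-/- and 204 in Stat5b-/-), with log2 fold changes of 0.39 (adjusted p = 0.0195, edgeR) in Stat5a-/- and 0.27 (adjusted p = 0.0799) in Stat5b-/- against wt. Gnai1, another Gi subunit, had 605, 948 and 697 reads in wt, 1, 3 and 0 in Stat5a-/- and 4, 0 and 2 in Stat5b-/-, and fell in both, with log2 fold changes of -8.525 (adjusted p = 1.40e-09, edgeR) and -8.135 (adjusted p = 1.32e-09). Gnao1, the Go subunit known from neurons, had 1062 to 1141 reads in wt, 6 to 12 in Stat5a-/- and 0 to 5 in Stat5b-/- (log2 fold change -6.28 and -8.31, adjusted p = 4.95e-10 and 2.71e-10, edgeR). Gnat2, known as the transducin of cones, fell by 3.69 in Stat5b-/- (adjusted p = 2.92e-07, edgeR) and 1.1 in Stat5a-/- (adjusted p = 0.00119). Gna12, a subunit of the G12/13 class, rose from 34.2 ± 7.27 CPM to 116 ± 29.7 in Stat5a-/- and 87.6 ± 17.1 in Stat5b-/- (log2 fold change 1.76 and 1.36, adjusted p = 1.41e-05 and 1.12e-04, edgeR).

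Of the G beta and gamma subunits, 11 of 16 were tested, with 2 higher and 2 lower in Stat5b-/- against wt and 3 higher and 0 lower in Stat5a-/- against wt by edgeR. Over all 9 libraries Gnb1 had the highest mean level per kb (117, 87.1 and 103 CPM per kb in wt, Stat5a-/- and Stat5b-/-), although the mean of Gnb2, a gene named after its values were seen, was above it in both knockout lines (78.8, 95.9 and 122 CPM per kb). Gng12 had 12 to 24 reads in wt, 647 to 863 in Stat5a-/- and 1306 to 1493 in Stat5b-/- libraries, a rise of 5.84 (adjusted p = 5.43e-11, edgeR) and 6.51 (adjusted p = 3.67e-11) on the log2 scale. Gng4 had 11 to 24 reads in wt, 143 to 147 in Stat5a-/- and 2 to 4 in Stat5b-/-, and so moved in opposite directions (3.39 and -2.49, adjusted p = 2.18e-07 and 8.45e-04, edgeR). Gng7 was lower in Stat5b-/- than in wt (-1.33, adjusted p = 0.00482, edgeR), and Gng3 was higher in Stat5a-/- (1.62, adjusted p = 0.00181) and Stat5b-/- (1.09, adjusted p = 0.0214) on at most 16 reads in a library.

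Among receptors, Cxcr4, the receptor of CXCL12, had the highest level per kb (82.9, 99.7 and 124 CPM per kb in wt, Stat5a-/- and Stat5b-/-), with log2 fold changes under the fold limit (0.58 in Stat5b-/-, adjusted p = 1.29e-04, edgeR). S1pr3, a receptor for sphingosine 1-phosphate, had 38 to 53 reads in wt, 196 to 235 in Stat5a-/- and 1 to 5 in Stat5b-/- (2.67 and -3.61 against wt, adjusted p = 1.33e-07 and 2.50e-06, edgeR). Cysltr1, a leukotriene receptor, had 31.9 ± 4.44 CPM in wt, 21.7 ± 6.23 in Stat5a-/- and 0.477 ± 0.134 in Stat5b-/-, and fell by 6.05 in Stat5b-/- (adjusted p = 4.85e-09, edgeR). Ptger2, a prostaglandin E receptor that couples to Gs, rose by 3.08 in Stat5b-/- (adjusted p = 2.49e-08, edgeR) and 1.65 in Stat5a-/- (adjusted p = 3.29e-05). Gpr171 rose from 8.12 ± 1.08 CPM to 60.5 ± 14.6 in Stat5a-/- and 69.0 ± 14.6 in Stat5b-/- (2.89 and 3.08, adjusted p = 1.62e-07 and 7.82e-08, edgeR).

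Of the other proteins with an RGS domain, 14 of 15 were tested, with 3 higher and 0 lower in Stat5b-/- against wt and 2 higher and 1 lower in Stat5a-/- against wt by edgeR. Axin2, a scaffold of the beta-catenin destruction complex, rose by 2.31 in Stat5b-/- (adjusted p = 2.45e-07, edgeR) and 2.64 in Stat5a-/- (adjusted p = 7.37e-08). Grk5, a kinase of active receptors, rose by 1.28 and 1.92 (adjusted p = 6.37e-06 and 1.47e-07, edgeR), and Grk3 by 1.42 in Stat5b-/- on 5 to 31 reads in a library (adjusted p = 0.00848). Arhgef12, whose RGS domain binds Gna12, fell by 1.44 in Stat5a-/- (adjusted p = 2.99e-07, edgeR) and had a log2 fold change of -0.42 in Stat5b-/- (adjusted p = 0.00522). Of 25 effectors 17 were tested, with 3 higher and 1 lower in Stat5b-/- and 3 higher and 2 lower in Stat5a-/- against wt. The adenylyl cyclase Adcy6 rose from 5.10 ± 0.796 CPM to 77.4 ± 12.3 in Stat5a-/- and 53.0 ± 7.79 in Stat5b-/- (3.92 and 3.37, adjusted p = 1.64e-09 and 5.75e-09, edgeR), while Adcy9 fell by 3.12 in Stat5a-/- (adjusted p = 6.30e-06). The cAMP phosphodiesterase Pde7b had 242 reads over the wt libraries, 3 over Stat5a-/- and 58 over Stat5b-/-, a ratio of 57.5 (95% exact interval 19.4 to 281) between wt and Stat5a-/-. Pde4c rose by 3.29 in Stat5a-/- (adjusted p = 2.96e-06, edgeR). Of the 7 tested genes among other modulators of G proteins, 0 were past both limits in any comparison by edgeR, and 2 passed the adjusted p alone in each.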

How the data were processed

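Libraries from mRNA of the 3 cell lines, with 3 technical replicates each, were sequenced by the authors as single-end reads, trimmed with Trimmomatic, mapped with STAR to GRCm38 and counted, with GENCODE M13 annotation, on union gene models with featureCounts 1.5.1. The authors deposited these counts for each gene without normalization. The counter was run without a strand option, so reads of overlapping genes on opposite strands cannot be told apart and reads in exons of both were not assigned. Symbols for 50376 genes came from a gene name table given with GENCODE M21. Human samples were not analysed here.

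After TMM scaling, tests used edgeR 4.0.16 under R 4.3.3 (quasi-likelihood, filterByExpr, all 9 libraries, Benjamini-Hochberg adjustment over 13852 genes). CPM were computed on the TMM-scaled totals, also divided by gene model length in kb. Standard errors were derived from log2 fold changes and their F statistics. The 10 genes and all lists were chosen with earlier results of these data known. Named were these 10, up to 4 genes of each list and of the neighbours with the largest log2 fold change among those past both limits without overlap of libraries, the highest gene per kb of 3 lists, and the 3 most similar genes of 3 members, of which 1 is not reported here. Of the listed symbols, 2 matched no gene.

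Alternatives were DESeq2 1.42.0, RLE scaling, other filters, fits on the 2 lines compared, each library left out, the replicate number as a block, and no fold limit. Chosen after seeing the data were the T-cell marker covariate, a GC offset (loess), that offset with the block, and all alternatives for the neighbours. The steps were tested on simulated counts. Totals of 11948136 to 19016396 reads limit precision for genes with few reads, and, as no molecular identifiers were used, counting intervals cover counting error only.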

Additional observations from a re-analysis of the deposited data

Results flagged for a closer look

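Rgs1 was below the wt mean in every Stat5a-/- library and above it in every Stat5b-/- library, and its log2 fold changes against wt differed by 1.79. With the T-cell marker covariate the Stat5b-/- value of Rgs1 was -0.31 (SE 0.82), on the same side as Stat5a-/-, and Rgs1 was not past both limits between the knockout lines. Rgs19 was above the wt mean in every Stat5a-/- library and below it in every Stat5b-/- library, and its log2 fold changes differed by -0.715, with the Stat5a-/- value at -0.035 in place of 0.136 under a GC offset. For both genes this difference was not tested, because they were listed with these values known. Gng4 rose in Stat5a-/- and fell in Stat5b-/- against wt, and the difference of the log2 fold changes, which is the comparison of the knockout lines, was -5.88 (adjusted p = 4.03e-08, edgeR). S1pr3 did the same, with a difference of -6.28 (adjusted p = 3.39e-09, edgeR). Both comparisons share the wt libraries, and each genotype is 1 line.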

How the results depend on the processing

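Among the alternative values for the log2 fold changes of the RGS genes, 488 stayed within 1 SD of the replicates and 29 moved by more. The T-cell marker covariate gave 19 of these 29 and also the 1 reversal of sign. Of the values past both limits, Rgs10 in Stat5b-/- against wt changed sign to -0.558 with the T-cell marker covariate. With that covariate 2 RGS genes (Rgs12 and Rgs20) in place of 5 and 20 partner genes in place of 43 were past both limits in Stat5b-/- against wt. Over all tested genes the same fit gave 4.37% higher and 4.22% lower, against 10.6% and 8.44% without the covariate, and its median standard error was 0.464 against 0.16, so that Rgs14 lost its call at a larger log2 fold change (1.74, SE 0.62, against 1.09, SE 0.20). Between the knockout lines this covariate put Rgs12 in place of Rgs1. With a GC offset, 2 RGS genes (Rgs16 and Rgs20) in place of 4 were past them in Stat5a-/- against wt and 2 (Rgs1 and Rgs10) in place of 1 between the knockout lines, and a GC offset fitted along with the replicate block gave 2 and 2 again. By adjusted p alone, RGS genes numbered 8 in Stat5b-/- against wt and 5 between the knockout lines, partner genes 80 in Stat5b-/- against wt, 61 in Stat5a-/- against wt and 56 between the lines, and neighbours 9 in Stat5b-/- against wt. With each library left out in turn, the number of RGS genes was 3 to 6 in Stat5b-/- against wt (3 without Stat5b-/- replicate 1), 2 to 4 in Stat5a-/- against wt (2 without wt replicate 2 or 3) and 1 to 2 between the knockout lines (2 without Stat5a-/- replicate 1 or Stat5b-/- replicate 2). The cause of these shifts was not tested. The replicate numbers did not pair the libraries on average. Deviations correlated by a mean of -0.0877 over 9 pairs with the same number (range -0.445 to 0.216). Over 18 pairs with different numbers the mean was 0.0438 (range -0.426 to 0.391), so single pairs of libraries did share deviations. With the replicate block 5, 3 and 1 RGS genes, 41, 34 and 21 partner genes and 4, 4 and 4 neighbours were past both limits in Stat5b-/- against wt, Stat5a-/- against wt and between the knockout lines. Rgs16, with 2 to 18 reads in a library, and Rgs20 are limited by depth.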
